A study of Homo sapiens with 4 samples.

Results

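Expression of 10 genes of pericellular proteolysis was examined in UM-UC-3 bladder cancer cells by RNA-seq. They were 5 matrix metalloproteinases (MMP1, MMP2, MMP7, MMP9 and MMP14), 3 tissue inhibitors of metalloproteinases (TIMP1, TIMP2 and TIMP3), urokinase (PLAU) and its receptor (PLAUR). They were chosen by symbol, with earlier results of these libraries known, from 27629 gene identifiers listed in at least 1 of the 4 tables. Of the 10 genes, 9 were listed in every table and 8 reached 1 CPM (reads of a gene scaled to the size of its library) in at least 1 library of each comparison. TIMP3 stayed under 1 CPM throughout, and MMP7 had no row in the tables used here and was not analysed.

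Matrix metalloproteinases are zinc-dependent enzymes that are made as inactive proforms and, once activated, cut collagens and other matrix proteins. TIMPs are small secreted proteins that block their active site. Urokinase bound to its receptor turns plasminogen into plasmin at the cell surface, and plasmin degrades fibrin and can activate some pro-MMPs. Invasive tumour cells and their stroma commonly use both systems.

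UM-UC-3 is an established human bladder cancer cell line. Cells were transfected with 75 nM siRNA carried by a lipid reagent, and 1 library was made from total RNA for each of 4 conditions: control siRNA, si-hnRNPK, si-lncRNA-LBCS and si-PTBP1. The methods give 48 h of transfection for control siRNA and si-hnRNPK, and name no time for the other conditions. Each knockdown culture received a pair of siRNAs against its target, so effects of the 2 sequences cannot be told apart. Without replicate cultures no difference could be set against a spread between cultures, and no p-value is given.

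The libraries held 54301152 to 70232674 reads on listed genes, and 3 reads corresponded to 0.0427 to 0.0552 CPM. HNRNPK was at 24.0% of its control level in the si-hnRNPK library, and PTBP1 at 32.0% in the si-PTBP1 library. The gene matched by the lncRNA-LBCS siRNAs had 103 reads in the si-lncRNA-LBCS-labelled library and 110 in the control library, a ratio of 0.818 with a counting interval from 0.619 to 1.08, so its lowering was not detectable and the library is named by its label throughout. Against the control library, median-of-ratios scaling (a correction for a general shift of all genes) differed by -0.11 (log2) for si-hnRNPK, 0.13 for si-PTBP1 and -0.01 for the si-lncRNA-LBCS-labelled library. Urothelial differentiation markers were low: UPK1A, UPK1B, UPK2, UPK3B, GATA3, KRT20 and KRT5 were all under 1 CPM where listed, and the 10 listed markers of 12 summed to 5.74 to 11.7 CPM. In the comparisons of si-hnRNPK, the si-lncRNA-LBCS-labelled library and si-PTBP1, 3, 2 and 3 of these markers reached 1 CPM. Only the basal cell factor TP63 passed the threshold used below, at 0.342 CPM in control, 2.50 in si-hnRNPK and 2.37 in si-PTBP1. Of all genes, 3.55% and 2.92% were called higher in those 2 knockdown libraries. Of 4 simple epithelial keratins, KRT8 and KRT18 were at 63.0 and 121.4 CPM in the control library. KRT7 and KRT19 made up the small rest of the sum of 187.4 CPM. Of the 4, 3 reached 1 CPM in each comparison.

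The level of each gene was first compared in the control library as CPM per kb of exon, since a longer transcript gives more reads. The exons of all annotated transcripts of a gene were merged for this length, and the transcripts in use can be shorter. The order between genes depends on this length, which the counting intervals do not cover. Urokinase was the highest, at 516.1 CPM per kb, followed by the membrane-anchored collagenase MMP14 at 98.3. TIMP1 and PLAUR came next at 45.4 and 45.3, and their counting intervals overlapped. The gelatinase MMP9 was at 21.5 CPM per kb. TIMP2 and the interstitial collagenase MMP1 were close together at 4.04 and 3.87, again with overlapping intervals, and MMP2, the other gelatinase, was at 2.87. TIMP3, with 5 reads, was the lowest at 0.0177. In the other libraries the order changed mainly through MMP9 and MMP1: MMP1 was at 17.5 CPM per kb in si-hnRNPK, above MMP9 at 4.86.

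**Figure D1:**
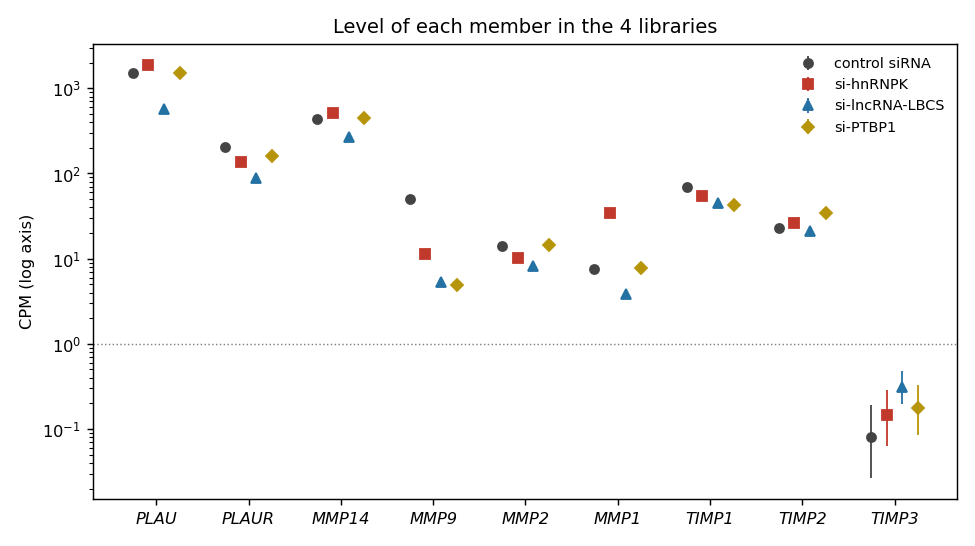
CPM (log axis) of the 9 listed genes in the control siRNA, si-hnRNPK, si-lncRNA-LBCS and si-PTBP1 libraries. Each point is 1 library, bars are 95% exact counting intervals, which are smaller than most symbols, and the dotted line marks 1 CPM. MMP9 is highest in the control library, MMP1 is highest in si-hnRNPK, and PLAU and PLAUR are lowest in the si-lncRNA-LBCS-labelled library.

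Each knockdown library was set against the control library by its difference in log2(CPM + 1). On this scale changes of weakly expressed genes come out too small. A difference of at least 1 was called. In si-hnRNPK 1 of the 8 genes at 1 CPM or more was up-regulated (MMP1) and 1 down-regulated (MMP9), while 3.55% of all 13672 genes were called higher and 3.93% lower, or 7.48% together (486 and 537 genes; median-of-ratios scaling gave 610 and 374). In the si-lncRNA-LBCS-labelled library 3 of the 8 were down-regulated (MMP9, PLAU and PLAUR) and 0 up-regulated, while 1.01% of 13492 genes were called lower and 0.378% higher, or 1.39% together. In si-PTBP1 only MMP9 of the 8 was called, while 0.613% of 13855 genes were called lower and 2.92% higher, or 3.53% together (85 and 404 genes; median-of-ratios scaling gave 132 and 256). The genes were chosen with these contrasts known, so the counts describe them and are not evidence about the group. The median of the 8 was -0.07 in si-hnRNPK, -0.78 in the si-lncRNA-LBCS-labelled library and 0.02 in si-PTBP1, beside -0.11, -0.01 and 0.12 for all genes. All 3 comparisons use the same control library.

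**Figure D2:**
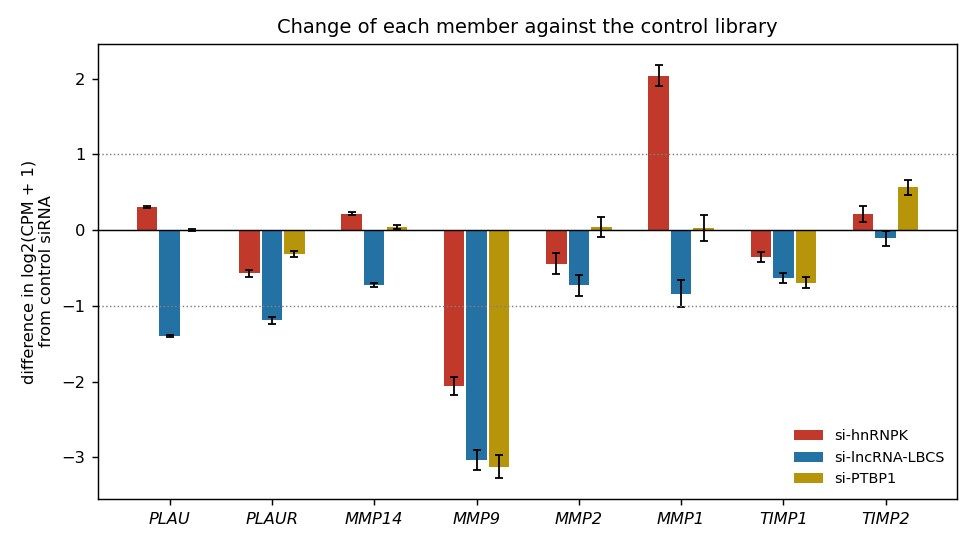
Difference in log2(CPM + 1) from the control library for the 8 genes at 1 CPM or more, with 95% exact counting intervals of the reads and dotted lines at the threshold of 1. MMP9 is below -2 in all 3 knockdown libraries, MMP1 is at 2.04 in si-hnRNPK, and PLAU and PLAUR pass -1 in the si-lncRNA-LBCS-labelled library alone.

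Urokinase (PLAU, ENSG00000122861, chromosome 10 of GRCh38, 73909177 to 73917497) is the serine protease that activates plasminogen. It was at 1523 CPM in the control library, 1883 in si-hnRNPK, 576.9 in the si-lncRNA-LBCS-labelled library and 1531 in si-PTBP1. The library labelled si-lncRNA-LBCS was thus the low one, control and si-PTBP1 lay close together, and si-hnRNPK was the highest. There PLAU was down-regulated by -1.40, to 0.379 times the control level (95% counting interval 0.375 to 0.383), and stood at place 48 from the lowest of 13492 genes. In a bulk culture fewer cells that make a transcript and less of it per cell cannot be told apart. In si-hnRNPK the difference was 0.31, or 1.24 times, and in si-PTBP1 it was 0.01, with an interval from 0.996 to 1.01 times that includes no difference. The uncharacterised gene C10orf55 lies on the opposite strand and shares 31.1% of the exonic bases of PLAU. Its values were 9.91 to 16.5 CPM, and since the strand setting of the counting is not given, reads of both genes cannot be told apart.

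The urokinase receptor (PLAUR, ENSG00000011422, chromosome 19, 43646095 to 43670547) is a lipid-anchored protein that holds urokinase at the cell surface. It was at 202.0 CPM in the control library, 135.6 in si-hnRNPK, 88.0 in the si-lncRNA-LBCS-labelled library and 161.6 in si-PTBP1. All 3 knockdown libraries were lower than control. The difference passed the threshold only in the si-lncRNA-LBCS-labelled library, at -1.19 or 0.436 times (0.422 to 0.449), against -0.57 in si-hnRNPK and -0.32 in si-PTBP1. Because PLAU and PLAUR did not change in proportion, the PLAU to PLAUR ratio of CPM per kb was 11.4 in control, 21.0 in si-hnRNPK, 9.91 in the si-lncRNA-LBCS-labelled library and 14.3 in si-PTBP1.

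The rest of the plasminogen system was examined from a list of 17 genes, of which 10 were at 1 CPM or more in each comparison. In the si-lncRNA-LBCS-labelled library the median of the 10 was -0.19, beside -0.01 for all genes. There 1 of the 10 was down-regulated and 0 were up-regulated, beside 1.01% and 0.378% of all genes. The down-regulated gene of the list was PLAT, tissue plasminogen activator, which makes plasmin as urokinase does. PLAT was at 15.9 CPM in control, 18.5 in si-hnRNPK, 5.50 in the si-lncRNA-LBCS-labelled library and 18.7 in si-PTBP1. The si-lncRNA-LBCS-labelled library was again the low one, and the other 3 lay between 15.9 and 18.7 CPM. The difference there was -1.38, or 0.346 times control (0.307 to 0.390), beside -1.40 for PLAU and -1.19 for PLAUR.

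None of the 10 passed the threshold in si-hnRNPK (median -0.00213) or si-PTBP1 (median 0.29). Of all genes, 7.48% and 3.53% were called in either direction, with medians of -0.11 and 0.12. The plasminogen-binding pair ANXA2 and S100A10 was at 5931 and 104.3 CPM in control and had differences of -0.40 and -0.48 in si-hnRNPK, -0.20 and -0.20 in the si-lncRNA-LBCS-labelled library, and 0.05 and 0.13 in si-PTBP1. Among the integrin chains that can associate with the urokinase receptor or its ligand vitronectin, ITGB1 was at 2088 CPM in control and higher in all 3 knockdown libraries, by 0.45 to 0.61. ITGAV differed by -0.01 to 0.41 and ITGB5 by -0.08 to 0.46. LRP1, an endocytic receptor for complexes of urokinase with its inhibitors, was at 34.9 CPM in control and 66.8 in si-PTBP1, a difference of 0.92. Plasminogen itself (PLG) was under 0.06 CPM in every library, at or near the level of 3 reads.

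**Figure D3:**
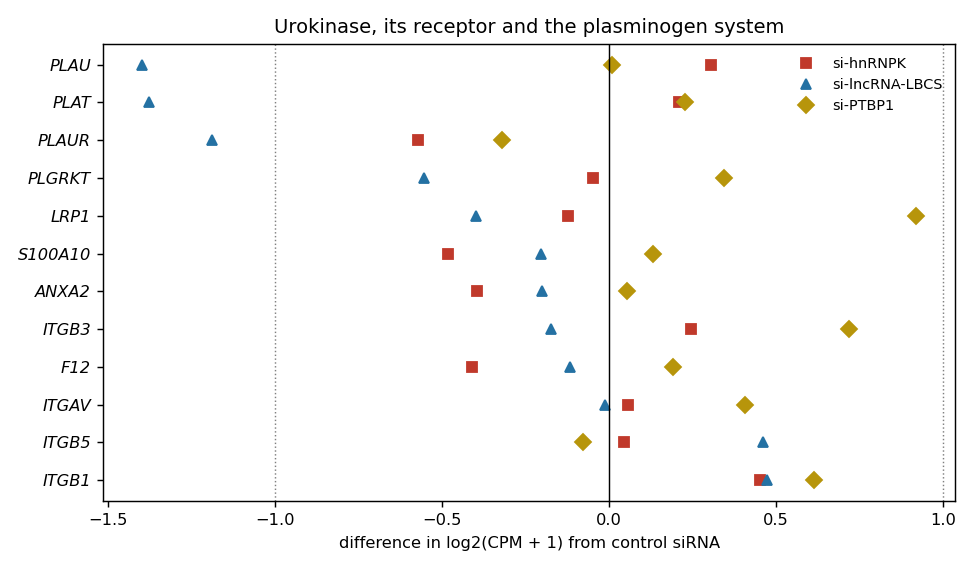
Difference in log2(CPM + 1) from the control library for PLAU, PLAUR and the 10 measured genes of the plasminogen system, ordered by their value in the si-lncRNA-LBCS-labelled library, with dotted lines at the threshold of 1. Each point is 1 library. PLAU, PLAT and PLAUR lie between -1.40 and -1.19 in that library, and the other 9 genes lie between -0.56 and 0.47.

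An siRNA can also lower mRNAs other than its target through its seed, bases 2 to 8 of the guide strand, when the 3' UTR holds the complementary 7 bases. Since the siRNA sequences in the labels matched their target transcripts in the sense direction, each guide is the complement. The guides of both lncRNA-LBCS siRNAs and the matching 3' UTR stretches of PLAU, of ITGB5 and of MMP1 and MMP14, matched by siRNA-2, are shown because PLAU was low in that library. Capitals mark the seed in the guides and the 7 matching bases in the 3' UTRs.
lncRNA-LBCS siRNA-1 guide: gAUCAGACaaaugagcagc
PLAU 3' UTR, chr10:73917131-73917159, plus strand: taagagctggtGTCTGATtgttaagtcta
ITGB5 3' UTR, chr3:124762938-124762966, minus strand: aatttgtgtttGTCTGATactctctgtgt
ITGB5 3' UTR, chr3:124762832-124762860, minus strand: gacacaggctgGTCTGATactccagactg
lncRNA-LBCS siRNA-2 guide: aUUUGUGUugacuaccacc
MMP1 3' UTR, chr11:102789957-102789985, minus strand: taactcttctaACACAAAataagtgtttt
MMP14 3' UTR, chr14:22847165-22847193, plus strand: gcagagaaggcACACAAAcgaggaatgag

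The 7 bases GTCTGAT that pair with the seed of siRNA-1 were found in the longest annotated 3' UTR of 9.38% of 11922 genes, and once each in PLAU and PLAT. They were not found in the 3' UTR of PLAUR or MMP9, which were also down-regulated in that library. ITGB5 holds 2 matches and was at 187.5 CPM there, compared with 136.1 in control. FOSL2 and ETS1, which are read below, hold 1 match each. The 7 bases ACACAAA that pair with siRNA-2 were found in 18.2% of genes, and among the measured members once each in MMP1 and MMP14. Other list genes hold them too. PLGRKT holds 1 match and was at 0.668 times control in that library, and MMP16 holds 3 and was at 1.20 times. PLAU also holds 1 match to the seed of the second siRNA against hnRNPK and 1 to that of the second against PTBP1. PLAU was at 1.24 and 1.01 times the control level in those libraries. MMP2 likewise holds 1 match to each of these seeds, and was at 0.717 times control in si-hnRNPK and 1.03 times in si-PTBP1. TIMP2 holds 1 match to the second siRNA against PTBP1, and was at 34.2 CPM there, compared with 22.8 in control. TIMP3, under 1 CPM throughout, holds 1 match to each siRNA against hnRNPK. The part of seed matches in the changes was not tested.

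Among the secreted metalloproteinases, MMP1 (ENSG00000196611, chromosome 11, 102789920 to 102798160), the collagenase that opens fibrillar collagen, was the gene with the largest rise. It was at 7.63 CPM in control, 34.5 in si-hnRNPK, 3.82 in the si-lncRNA-LBCS-labelled library and 7.81 in si-PTBP1, from 468, 1872, 268 and 438 reads. The si-hnRNPK library stood above the other 3, with a difference of 2.04 or 4.52 times the control level (4.08 to 5.01), place 65 from the highest of 13672 genes. In the si-lncRNA-LBCS-labelled library the difference was -0.84, or 0.50 times (0.429 to 0.583), under the threshold on this scale. In si-PTBP1 it was 0.03 (0.897 to 1.17 times), within counting error. The pseudogene WTAPP1, on the opposite strand and not listed in the tables, shares 7.61% of the exonic bases of MMP1. The longest 3' UTR of MMP1 holds no match to the seeds of the siRNAs against hnRNPK.

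MMP9 (ENSG00000100985, chromosome 20, 46008908 to 46016561), a gelatinase that cleaves basement membrane collagen, showed the opposite arrangement, with 1 high library and 3 low ones. It was at 50.3 CPM in control, 11.3 in si-hnRNPK, 5.25 in the si-lncRNA-LBCS-labelled library and 4.89 in si-PTBP1, from 3089, 616, 369 and 274 reads. The differences of -2.06, -3.04 and -3.12 put it among the lowest genes of each comparison, at places 4, 2 and 2. These 3 values rest on the same control library. Against the geometric mean of all 3 remaining libraries, the difference in si-hnRNPK was -0.00232 and no longer a call, while those of the other two were -1.31 and -1.43. Compared directly, si-hnRNPK was 2.16 times the si-lncRNA-LBCS-labelled library (1.89 to 2.46) and 2.32 times si-PTBP1 (2.01 to 2.69), and the last pair differed by 1.08 times (0.917 to 1.26), within counting error. No seed match of any siRNA used was found in its longest 3' UTR. The antisense gene SLC12A5-AS1 shares 18.4% of its exonic bases and was at 1.25 to 1.69 CPM.

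MMP9 is abundant in white blood cells, so their markers were read in the same libraries. Of 10 such markers 5 were listed, and their sum was 2.22 CPM in control, 3.54 in si-hnRNPK, 0.883 in the si-lncRNA-LBCS-labelled library and 1.48 in si-PTBP1. PTPRC, CD163, LYZ, CD3E and MPO were not listed, and CD14 and CD68 were at 0.0713 CPM or less wherever listed. The sums thus came mostly from the other listed markers, ITGAM, CSF1R and CD79A. In the comparison of si-hnRNPK 2 markers reached 1 CPM, with differences of -0.38 and 0.93. The libraries came from a cell line, and whether any such cells contributed to the MMP9 values was not tested.

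The gelatinase MMP2 (ENSG00000087245, chromosome 16, 55389700 to 55506691) was at 14.2 CPM in control, 10.2 in si-hnRNPK, 8.17 in the si-lncRNA-LBCS-labelled library and 14.6 in si-PTBP1. The differences were -0.44, -0.73 and 0.04, none past the threshold. MMP14 (ENSG00000157227, chromosome 14, 22836557 to 22849027), which sits in the membrane and activates pro-MMP2 together with TIMP2, was at 438.9, 511.4, 265.1 and 452.2 CPM in the same order, with differences of 0.22, -0.73 and 0.04. Both genes were thus lowest in the si-lncRNA-LBCS-labelled library, at 0.577 times (0.518 to 0.641) and 0.604 times (0.593 to 0.615) the control level. In that library all 8 measured genes were below control, from -3.04 for MMP9 to -0.11 for TIMP2, where 51.8% of all genes were below 0.

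TIMP1 (ENSG00000102265, chromosome X, 47582313 to 47586789), the inhibitor that also binds pro-MMP9, was at 69.9 CPM in control, 54.3 in si-hnRNPK, 44.9 in the si-lncRNA-LBCS-labelled library and 42.9 in si-PTBP1. Every knockdown library was below control, by -0.36, -0.63 and -0.69, and none passed the threshold. TIMP2 (ENSG00000035862, chromosome 17, 78852977 to 78925387) was at 22.8, 26.5, 21.1 and 34.2 CPM, with differences of 0.21, -0.11 and 0.57, so it was highest in si-PTBP1 at 1.5 times control (1.40 to 1.61). TIMP3 (ENSG00000100234, chromosome 22, 32801701 to 32863043), the inhibitor that binds to the matrix, had 5, 8, 22 and 10 reads, or 0.0815, 0.147, 0.313 and 0.178 CPM. At this depth its level was near the limit and no change was read from it.

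Enzyme and inhibitor were next compared within each library, which removes the scaling between libraries. The MMP9 to TIMP1 ratio of CPM per kb was 0.475 in control, 0.138 in si-hnRNPK, 0.0772 in the si-lncRNA-LBCS-labelled library and 0.0752 in si-PTBP1. The MMP1 to TIMP1 ratio was 0.0853, 0.496, 0.0665 and 0.143 in the same order. In control there was thus more MMP9 than MMP1 per TIMP1, and in si-hnRNPK and si-PTBP1 more MMP1 than MMP9. In the si-lncRNA-LBCS-labelled library MMP9 was at 2.25 CPM per kb (2.03 to 2.49) and MMP1 at 1.94 (1.71 to 2.18). Their counting intervals overlapped. The MMP14 to TIMP2 ratio was 24.3 in both control and si-hnRNPK, 15.9 in the si-lncRNA-LBCS-labelled library and 16.7 in si-PTBP1. The MMP2 to TIMP2 ratio was 0.711 in control and 0.438 to 0.487 in the knockdown libraries.

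**Figure D4:**
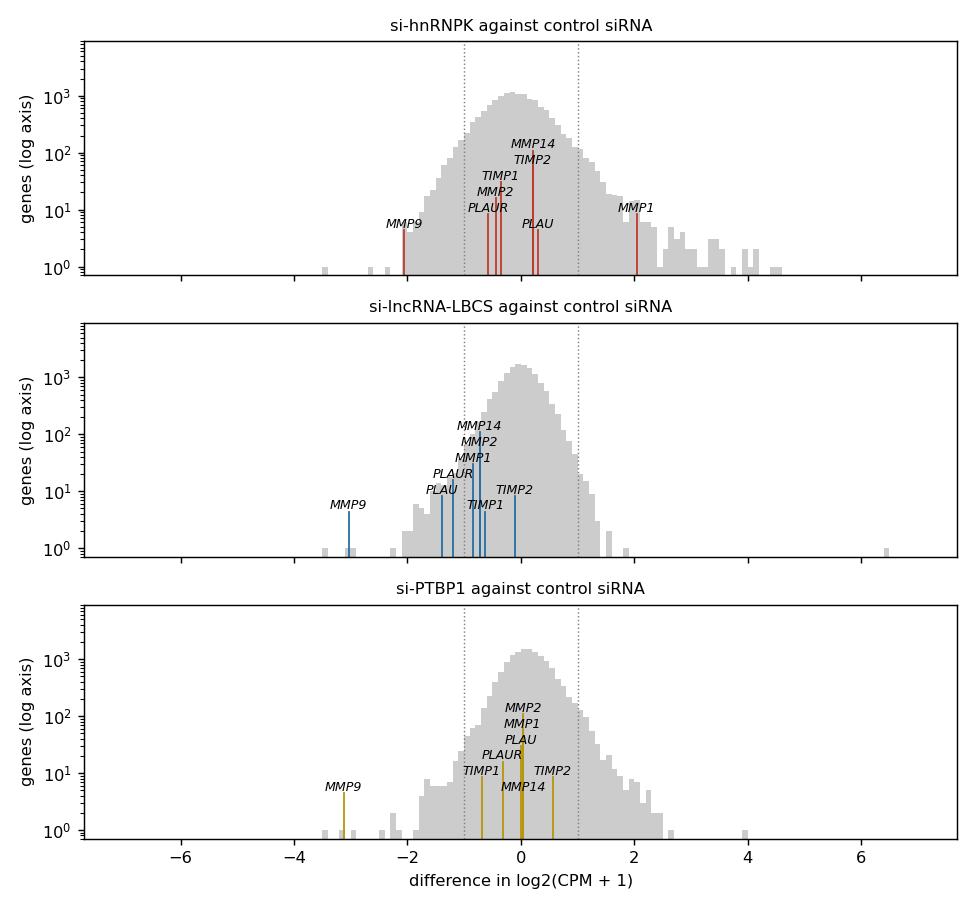
Number of genes (log axis) by difference in log2(CPM + 1) from the control library, in bins of 0.1, for the genes at 1 CPM or more in each comparison. Coloured lines, whose height has no meaning, mark the 8 genes by name, and dotted lines mark the threshold of 1. MMP9 lies at the lower edge of all 3 distributions, MMP1 in the upper tail of si-hnRNPK, and all 8 genes lie below 0 in the si-lncRNA-LBCS-labelled library.

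Of 18 other MMP genes, 9 were listed in at least 1 table, and 6, 5 and 5 reached 1 CPM in the comparisons of si-hnRNPK, the si-lncRNA-LBCS-labelled library and si-PTBP1. Only MMP15, a membrane-type enzyme, was called, rising from 2.53 to 8.70 CPM in si-PTBP1, a difference of 1.46. In the same order of comparisons, 7.48%, 1.39% and 3.53% of all genes were called in either direction. MMP16, another membrane-type enzyme, was at 93.0 CPM in control, 118.9 in si-hnRNPK, 111.4 in the si-lncRNA-LBCS-labelled library and 177.2 in si-PTBP1, with a largest difference of 0.92. The medians of those measured were 0.24, 0.13 and 0.40, beside -0.11, -0.01 and 0.12 for all genes. MMP3, the stromelysin encoded beside MMP1, was at 0.261 CPM in control and 1.12 in si-hnRNPK.

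Of 10 genes that activate or anchor MMPs or inhibit them in other ways, 6, 6 and 7 reached 1 CPM in the comparisons of si-hnRNPK, the si-lncRNA-LBCS-labelled library and si-PTBP1. In si-hnRNPK 1 of 6 was up-regulated and 2 were down-regulated, and 0 were called in the other libraries, beside 7.48%, 1.39% and 3.53% of all genes called in either direction. Their medians were 0.08, -0.03 and 0.05, beside -0.11, -0.01 and 0.12 for all genes. CAV1, the caveolar coat protein, rose from 238.6 to 585.5 CPM, a difference of 1.29. CD44, the hyaluronan receptor that can hold MMP9 and MMP14 at the surface, fell from 495.4 to 225.2 CPM, a difference of -1.13. The proprotein convertase PCSK7 fell from 61.5 to 29.4 CPM, a difference of -1.04. In the si-lncRNA-LBCS-labelled library CAV1 was at 459.8 and CD44 at 304.0 CPM, differences of 0.94 and -0.70. BSG, which can induce MMPs, was at 251.6 CPM in control and 384.5 in si-hnRNPK, a difference of 0.61.

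Of 30 ADAM and ADAMTS proteases, 18 reached 1 CPM in the comparison of si-hnRNPK, 18 in that of the si-lncRNA-LBCS-labelled library and 19 in that of si-PTBP1. Of these 2, 1 and 2 were called higher and 0 lower, beside 3.55%, 0.378% and 2.92% of all genes called higher. Their medians were 0.31, -0.01 and 0.33, beside -0.11, -0.01 and 0.12 for all genes. ADAMTS1, which cleaves proteoglycans, rose from 21.9 to 58.7 CPM in si-hnRNPK and was at 21.8 and 20.4 CPM in the other 2 knockdown libraries. ADAMTS6 rose from 1.66 to 4.81 CPM in si-hnRNPK, and ADAMTS14, a procollagen-processing enzyme, from 3.89 CPM by 1.96 (log2) in si-PTBP1. ADAM15 was at 38.6 CPM in control and 76.7, 84.4 and 79.0 CPM in si-hnRNPK, the si-lncRNA-LBCS-labelled library and si-PTBP1, with differences of 0.97, 1.11 and 1.01 that all rest on the control value. The shedding protease ADAM17 was at 96.7 CPM in control and 154.3 in si-hnRNPK, and its relative ADAM10 at 171.9 and 235.8. ADAM9 was at 446.4, 750.9, 550.4 and 288.8 CPM in control, si-hnRNPK, the si-lncRNA-LBCS-labelled library and si-PTBP1, and ADAM19 between 71.6 and 100.8.

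AP-1 (dimers of FOS and JUN proteins) and ETS factors are known regulators of MMP and PLAU promoters, and 16 genes of these and related factors were read in the same way. In si-hnRNPK 5 of the 16 rose (FOS, FOSB, JUNB, JUND and ATF3) and 3 fell (FOSL1, ETV1 and ETV4), beside 3.55% and 3.93% of all genes. The medians of the 16 were 0.41 in si-hnRNPK, -0.21 in the si-lncRNA-LBCS-labelled library and 0.06 in si-PTBP1. For all genes they were -0.11, -0.01 and 0.12. FOS was at 2.56 CPM in control and 19.7 in si-hnRNPK, and JUNB at 36.7 and 119.5. JUN, at 281.1 and 560.4 CPM, stayed just under the threshold at 0.99. FOSL1, a FOS relative, was at 64.2 CPM in control, 18.7 in si-hnRNPK, 21.3 in the si-lncRNA-LBCS-labelled library and 34.6 in si-PTBP1. In the si-lncRNA-LBCS-labelled library FOSL1 was the only gene of the 16 called, at -1.55, beside 1.39% of all genes in either direction. JUNB was at 21.3 CPM there, a difference of -0.76. In si-PTBP1 FOS, FOSB and JUND rose, by 1.62, 2.06 and 1.18, beside 2.92% of all genes called higher. FOSL2, ETS1 and SP1, at 185.9, 272.1 and 141.0 CPM in control, stayed within 0.68 of control in every library.

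Promoter sequences from RefSeq on GRCh38.p14, 250 bases before to 50 after a start, were read for MMP7, MMP14, TIMP1, TIMP3, PLAUR and both PLAU starts listed. The AP-1 motif TGANTCA, which reads the same on both strands, was found in 7.71% of all 35116 such promoters. No promoter of MMP1, MMP2, MMP9, TIMP2 or PLAT was read. Among those read it was found once in PLAUR, 186 bases before the start, and once in MMP7, 67 bases before the start, and not in MMP14, TIMP1, TIMP3 or PLAU. Of the other genes named here, ANXA2 and FOSL2 also hold a match. The stretch of PLAUR is shown as the match in a member that was measured, with the motif in capitals.
PLAUR promoter, chr19:43670338-43670366, minus strand: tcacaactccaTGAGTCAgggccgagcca
A match describes these letters and is not evidence that a factor binds there. The part of AP-1 in the PLAUR values was not tested.

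The genes with the most similar pattern were sought among the 9451 named genes that reached 10 CPM, by the distance between their 3 differences from control and those of the gene. The measure rests on 4 libraries. For PLAU the nearest gene was PLAT (distance 0.24), followed by LIF and TMEM158 (0.44 and 0.48). For PLAUR the nearest were CCDC86 (0.03), HEG1 (0.14) and PPARD (0.15). For MMP1 they were JUNB (0.48), P3H2 (0.48) and IFI16 (0.50). No gene was close to MMP9: the nearest, GFPT2, KRT15 and CD82, lay at distances of 2.27 to 2.31. GFPT2 was at 80.2 CPM in control and 22.1 to 29.3 CPM in the knockdown libraries.

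Markers of fibroblasts, which also make MMPs and TIMPs, summed to 17.6 CPM in control, 41.9 in si-hnRNPK, 14.2 in the si-lncRNA-LBCS-labelled library and 30.1 in si-PTBP1 over the 8 of 10 listed. The rise in si-hnRNPK was mostly ACTA2, at 1.55 CPM in control and 24.2 there, while COL1A1 was at 0.407 and 0.387 CPM, FAP was under 0.04 CPM in every library, and COL1A2 and DCN were not listed. In si-hnRNPK 2 of 4 measured markers were called higher (ACTA2 and POSTN) and 0 lower, and 0 of 4 were called in the si-lncRNA-LBCS-labelled library. In si-PTBP1 3 of 6 were called higher and 1 lower. Of all genes 3.55% were called higher in si-hnRNPK, and 2.92% higher and 0.613% lower in si-PTBP1. There ACTA2 was at 9.63, COL1A1 at 2.25 and POSTN at 5.83 CPM, all called higher. THY1 was called lower in si-PTBP1, at 4.85 CPM compared with 11.4 in control. POSTN was at 2.19 CPM in si-hnRNPK, 1.57 in the si-lncRNA-LBCS-labelled library and 0.424 in control. The part of these levels in the MMP1 and TIMP2 values was not tested.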

How the data were processed

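RNA-seq libraries of UM-UC-3 cells (1 per condition) were analysed from the CPM values that the authors deposited, reads of a gene scaled to library size. The submitters' processing notes name the build hg19. The aligner, the counter, the annotation and any filter are not given in the sources used here. The values were whole multiples of 1 read (within 0.01 read) for 100% of genes with reads, which gave the reads. Genes without reads carry a placeholder and were set to 0. Gene symbols, positions and exon lengths (GENCODE 29, GRCh38) were matched by identifier, so positions are not those of the build named by the submitters.

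A knockdown library minus the control library in log2(CPM + 1) is the difference reported, with a threshold of 1. A gene had to reach 1 CPM in either library. Read ratios have 95% exact (Clopper-Pearson) intervals that, like the level of 3 reads, cover counting error only. The members and lists were chosen with earlier results of these data known. A gene of the plasminogen list is not reported here and was left out of its counts. Named were all members, list genes past the threshold or at 100 CPM or more, the 3 most similar genes of each called member (distance over 3 differences, at 10 CPM or more), and the targeted genes. LRP1, MMP3, PLG, PLGRKT and some of the cell type markers named fall outside this rule and were chosen after their values were seen. Seed matches were sought in the longest annotated 3' UTR. The alternatives were another pseudocount, filter, threshold, scaling and reference, and an exact binomial test of the reads, which compares 2 libraries and not conditions. The scripts were tested on simulated data. The software was scipy 1.17.1, numpy 2.4.6, matplotlib 3.10.9 and pandas 2.3.3 under Python 3.11.15.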

Additional observations from a re-analysis of the deposited data

How the results depend on the processing

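The calls of MMP1 in si-hnRNPK, of MMP9 and PLAU in the si-lncRNA-LBCS-labelled library and of MMP9 in si-PTBP1 stayed past the threshold in the same direction under each alternative run. Against the geometric mean of all 3 remaining libraries, MMP9 in si-hnRNPK was at -0.00232 and PLAUR in the si-lncRNA-LBCS-labelled library at -0.89, so both calls were lost and 0 members were lower in si-hnRNPK. That reference gave 2.31 for MMP1 in si-hnRNPK, -1.43 and -1.31 for MMP9 in si-PTBP1 and the si-lncRNA-LBCS-labelled library, and -1.5 for PLAU. It also brought MMP1 past the threshold in that library. A pseudocount of 0.1 CPM moved MMP9 to -3.34 in si-PTBP1 and -3.24 in the si-lncRNA-LBCS-labelled library. A threshold of 1.5-fold gave 7 members lower in the si-lncRNA-LBCS-labelled library and 2 in si-PTBP1. With median-of-ratios scaling the differences of PLAU, MMP1, MMP2 and MMP14 in si-PTBP1, all at most 0.04, changed sign. The binomial test with the threshold left every count of members as it was. Alone, at a q of at most 0.05, it called 10872, 9479 and 10182 genes in si-hnRNPK, the si-lncRNA-LBCS-labelled library and si-PTBP1, and 8, 7 and 5 of the 8 members.

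Counts of all genes moved more. In si-hnRNPK 486 genes were higher and 537 lower. A threshold of 1.5-fold gave 1352 and 2165, a pseudocount of 0.1 CPM gave 790 and 995, and the geometric mean gave 320 higher. In the si-lncRNA-LBCS-labelled library 51 were higher and 136 lower, with 559 and 774 at 1.5-fold, 165 and 353 with the pseudocount, and 7 higher with the geometric mean. In si-PTBP1 404 were higher and 85 lower, with 1673 and 432 at 1.5-fold, 793 and 173 with the pseudocount, 256 and 132 with median-of-ratios scaling, and 234 higher with the geometric mean. What causes these shifts was not tested. No paired analysis was possible because each condition has 1 library. TIMP3, with at most 22 reads, is limited by depth.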
